A study of Rattus norvegicus with 9 samples.

Results

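The 47 genes described here encode proteins that splice pre-mRNA or choose where it is spliced, in rat pXEN cells grown in 3 media. They were taken by symbol and count: every gene named Srsf followed by a digit, Hnrnp, Sf3a or Sf3b followed by a digit, Snrp or U2af, with at least 10 gene-strand counts in at least 3 of the 9 libraries. Of 17315 genes listed, 51 had such a symbol and 47 reached the count: 11 of 11 SR proteins, 15 of 18 hnRNP proteins, 9 of 9 subunits of SF3a and SF3b, 10 of 11 Sm and snRNP proteins named Snrp, and 2 of 2 U2af proteins. Hnrnpab, Hnrnpc and Snrpn were listed at 0 counts in all 9 libraries. Whether their reads map to several places, and so enter no gene, could not be checked. A count of 0 thus does not show that they are silent in these cells. Hnrnph3 had 2, 2 and 1 counts in T, 0, 0 and 2 in LPE, and 22, 0 and 0 in CPE. Nearest above the limit were Srsf9, with 12 to 49 counts a library, and Srsf12, with 0 to 34. U2af2, the large U2af subunit, was not analysed here.

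The cells are 1 line, RX1, of primitive extraembryonic endoderm from the WKY rat strain, with 3 RNA-seq libraries from each medium. All 3 media held Pdgf and Egf at 10 ng/ml each and β-mercaptoethanol. In T, cells grew on fibronectin (100 ng/ml) in a DMEM and MCDB base with LA-BSA, ITS, ascorbic acid, 2% FBS, 0.5 µM dexamethasone and Lif at 10 ng/ml. In LPE they grew on collagen I (10 µg/ml) in a base of DMEM/F12 and Neurobasal with N2 and B27 supplements and Lif at 10 ng/ml, without serum or dexamethasone. CPE was like LPE but had 1 µM Chir99021, an inhibitor of the kinase Gsk3, in place of Lif. LPE and CPE thus differ from each other in 1 exchange. Each differs from T in coating, base, serum and steroid together, and CPE differs from T in that exchange as well. Within a comparison with T these cannot be told apart.

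Pre-mRNA is spliced by the spliceosome, which assembles on each intron from small nuclear ribonucleoproteins (snRNPs). Sm proteins form a ring on most spliceosomal RNAs, U1 recognises the 5′ splice site, U2af reads the 3′ end of the intron, and U2, with its SF3a and SF3b subcomplexes, holds the branch point. SR proteins mostly bind exons and recruit these particles, while many hnRNP proteins bind introns or exons and block or redirect them, so the levels of both classes bear on alternative exons. Many SR and hnRNP genes also limit their own mRNA by splicing in an exon that leads to its decay.

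Depth was 1698764 to 2161228 gene counts per library in T, 3119049 to 3233526 in LPE and 3127352 to 4418465 in CPE, so 1 count was worth 0.227 to 0.579 counts per 1e6 gene counts (CPM). Reads that map to several places enter no gene. Their share of reads was 64.9% to 67.6% in T but 51.7% to 59.9% in the other media, so that any of these genes with near-identical copies is uncertain. The labelled cell type was checked on 13 primitive endoderm markers: 11 were in the tables, none at 0 throughout, and their summed level was 12071 to 13640 CPM in T, with LPE at 28304 to 32494 and CPE at 16468 to 19322. Fibroblast markers (5 genes, Col1a2, Dcn and Lum at 0 in all libraries) summed to 1.39 to 31.3 CPM in T and were at 0 in the other media. Endothelial and blood markers (6 genes, Ptprc, Hbb and Cd34 at 0) summed to 22.9 to 33.0 CPM in T, with LPE at 65.4 to 96.0 and CPE at 17.0 to 22.7. Trophoblast markers (6 of 7 in the tables, Gcm1, Hand1 and Ascl2 at 0) summed to 0.930 to 2.73, 0 to 3.11 and 12 to 29.0 CPM, epiblast markers (5 of 6, Nanog, Sox2 and Fgf4 at 0) to 1.39 to 3.47, 0 to 0.639 and 2.27 to 8.26 CPM, and neural markers (5 of 6, Neurod1 and Pax6 at 0) to 12 to 16.8, 5.28 to 40.9 and 16.4 to 22.7 CPM. The part of these shifts, and of the share of reads mapping to several places, in the results was not tested. In bulk RNA, fewer cells of a type and less RNA per cell cannot be told apart. The labels do not say that libraries came from separate cultures, so each p-value reads a difference against variation among libraries that could be purely technical.

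Against T, most hnRNP and SF3 genes were higher in both other media. SR genes other than Srsf5 and most Snrp genes were lower or not called. In LPE against T, 27 of the 47 genes passed edgeR's quasi-likelihood test at an adjusted p under 0.05, which is 57.4% of them beside 29.7% of all 9130 genes tested. Of these, 19 were higher and 8 lower, where 15% and 14.7% of all genes were called in those directions. In CPE against T, 27 were called (57.4% beside 32.1%), 15 higher (16.8% of all genes) and 12 lower (15.3%). Between CPE and LPE, 8 were called, or 17% beside 17.8%: 2 higher in CPE (9.56% of all genes) and 6 lower (8.23%). By family that share was 9.09% of SR, 20% of hnRNP, 33.3% of SF3 and 10% of Snrp genes. The share called against T was thus above the background and the share called between CPE and LPE was at it. With all libraries thinned to the depth of the shallowest, 28, 27 and 9 of the 47 were called.

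These genes are read more deeply than most, with a median level of 149 CPM beside 42.5 over all genes tested. Among tested genes of at least 100 CPM, a limit set after the values were seen, 54%, 57.4% and 31.6% were called in the 3 comparisons. Of the 32 splicing genes above it, 62.5%, 68.8% and 25% were called, a smaller margin than over all levels against T and a share below the others between CPE and LPE. The family and list shares below are set beside all genes tested and were not matched for level. Against T, 80% and 53.3% of hnRNP and 77.8% and 88.9% of SF3 genes were called, beside those 54% and 57.4%. Snrp genes, at 50% and 60%, were near these, and SR genes, at 27.3% and 45.5%, were below them. Some genes of each of these families lie under 100 CPM. The median log2 fold change of the 47 genes was 0.18 in LPE against T, 0.15 in CPE against T and −0.14 in CPE against LPE, beside −0.03, −0.01 and 0.01 over all genes. The 3 comparisons share libraries and are not independent of each other. Called refers to edgeR on all 9 libraries unless another tool or setting is named. The counts of lower genes fell when a T library was left out. Without T replicates 1, 2 and 3 in turn, 6, 5 and 5 in place of 8 were lower in LPE. In CPE, 8, 9 and 6 in place of 12 were lower. Over all genes the same omissions left 912, 901 and 892 in place of 1343 lower in LPE. In CPE they left 976, 980 and 956 in place of 1396. The count higher in CPE over LPE was 1 in place of 2 without LPE replicate 2 or CPE replicate 2.

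**Figure D1:**
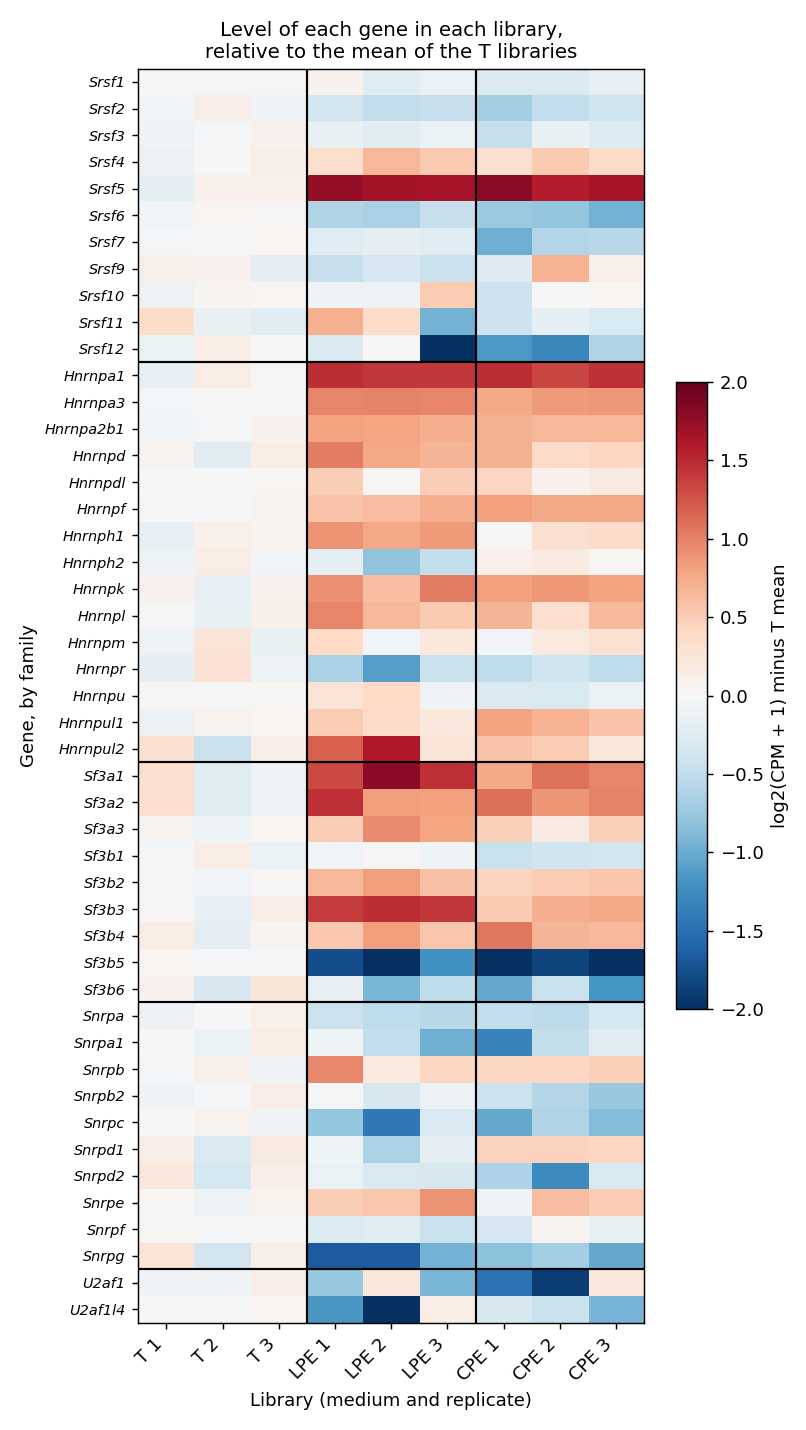
Level of each of the 47 genes (rows, grouped by family) in each of the 9 libraries (columns), as log2(CPM + 1) minus the mean of the 3 T libraries. Srsf5 and Hnrnpa1 stand out as higher and Sf3b5 and Snrpg as lower than T in both LPE and CPE, and U2af1 and U2af1l4 vary widely within LPE or CPE.

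Among genes called in the same direction against T in both media, Srsf5 and Hnrnpa1 had the largest rise and Sf3b5 and Snrpg the largest fall in log2 fold change averaged over LPE and CPE. In LPE alone Sf3a1 rose more than Hnrnpa1. The 250 bases before the annotated start of the 4 are shown because they lie furthest from T on that average. The sequences are from RefSeq on GRCr8, another build than that of the counts, and read 5′ to 3′ on the gene's own strand. Capitals mark matches on either strand to the CCAAT box (CCAAT), the TATA box (TATAAA), the GC box (GGGCGG), the Ets core (CGGAAG), the E-box (CACGTG), the cAMP response element (TGACGTCA) or the element TCTCGCGA.
Srsf5, chr6:106336506-106336755, plus strand: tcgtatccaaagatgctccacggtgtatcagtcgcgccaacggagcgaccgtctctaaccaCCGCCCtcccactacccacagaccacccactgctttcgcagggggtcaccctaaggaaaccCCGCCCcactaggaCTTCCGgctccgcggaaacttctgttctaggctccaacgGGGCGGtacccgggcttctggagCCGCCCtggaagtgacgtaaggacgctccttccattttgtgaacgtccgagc
Hnrnpa1, chr7:136253868-136254117, plus strand: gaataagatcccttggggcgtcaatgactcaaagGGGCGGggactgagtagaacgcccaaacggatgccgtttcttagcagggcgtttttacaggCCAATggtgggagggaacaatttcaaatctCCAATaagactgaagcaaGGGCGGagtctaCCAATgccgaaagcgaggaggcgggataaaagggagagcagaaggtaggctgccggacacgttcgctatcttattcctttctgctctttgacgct
Sf3b5, chr1:9176939-9177188, plus strand: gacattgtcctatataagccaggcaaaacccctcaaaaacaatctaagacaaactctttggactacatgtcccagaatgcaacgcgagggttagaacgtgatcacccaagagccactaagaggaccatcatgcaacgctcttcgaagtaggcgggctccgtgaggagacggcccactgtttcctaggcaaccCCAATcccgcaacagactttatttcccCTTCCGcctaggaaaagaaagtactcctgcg
Snrpg, chr4:120369461-120369710, plus strand: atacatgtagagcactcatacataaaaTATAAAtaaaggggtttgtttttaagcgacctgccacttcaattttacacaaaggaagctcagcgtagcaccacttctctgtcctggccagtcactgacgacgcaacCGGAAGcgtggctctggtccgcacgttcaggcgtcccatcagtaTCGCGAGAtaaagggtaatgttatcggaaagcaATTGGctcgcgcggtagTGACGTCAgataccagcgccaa
The Srsf5 window held 4 GC boxes and 1 Ets core, the Hnrnpa1 window 3 CCAAT and 2 GC boxes, and the Sf3b5 window 1 CCAAT and 1 Ets core. The Snrpg window held 1 match each to the CCAAT box, the TATA box, the Ets core, the cAMP response element and the element TCTCGCGA. Promoter entries were found for 46 of the 47 genes. Of these, 54.3% held the Ets core (13.9% of all 33469 promoters), 60.9% a GC box (30.5%), 45.7% a CCAAT box (34.0%), 10.9% a TATA box (12.9%), 10.9% an E-box (5.59%), 4.35% a cAMP response element (1.59%) and 4.35% the element TCTCGCGA (0.747%). A GC box followed by an Ets core can share letters with it, and a match describes letters only.

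Of the SR proteins, Srsf5 was the one called higher against T, while Srsf2 and Srsf6 fell in both media and Srsf3 and Srsf7 fell in CPE. In LPE against T, 1 of 11 was higher, 2 lower and 8 not called (median log2 fold change −0.17), so 27.3% were called beside 29.7% of all genes. In CPE against T 1 was higher, 4 lower and 6 not called (−0.29), or 45.5% beside 32.1%. Srsf5, whose exon binding can favour inclusion, gave 127, 156 and 156 CPM in T, with LPE at 494, 467 and 462 and CPE at 514, 437 and 461. No T library came near the others, and LPE and CPE lay on top of each other. It rose 3.23-fold in LPE (log2 1.69, SE 0.12, edgeR adjusted p = 1.3e-07) and 3.21-fold in CPE (log2 1.68, SE 0.12, adjusted p = 9.5e-08). Srsf6, another exon-binding SR protein, gave 1026, 1089 and 1075 CPM in T, with LPE at 704, 680.1 and 771 and CPE at 636, 615 and 553. It fell 1.48-fold in LPE (edgeR adjusted p = 0.00032) and 1.77-fold in CPE (adjusted p = 8.8e-06). The 3 groups did not overlap, though CPE against LPE missed the threshold in edgeR (log2 −0.26, adjusted p = 0.073) and passed it in DESeq2 (adjusted p = 0.024).

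Srsf2, which binds exonic enhancers and also acts in transcription elongation, gave 1461, 1675 and 1439 CPM in T, with LPE at 1184, 1084 and 1099.7 and CPE at 948, 1087 and 1151. It fell 1.36-fold (edgeR adjusted p = 0.0027) and 1.44-fold (adjusted p = 0.00069), with every T library above every other. Srsf7, a shuttling SR protein that also bears on mRNA export and poly(A) sites, gave 430.0, 434 and 449 CPM in T, with LPE at 369.8, 381 and 371 and CPE at 222, 289.8 and 298. Its 3 groups formed separate steps. In edgeR it was the one SR gene called between CPE and LPE, where it fell 1.39-fold (log2 −0.47, SE 0.12, edgeR adjusted p = 0.012), while DESeq2 also called Srsf6. Against T it fell 1.62-fold in CPE (edgeR adjusted p = 4e-04) and was not called in LPE (log2 −0.23, adjusted p = 0.18). Srsf3, a small SR protein that also serves export, gave 832, 860.0 and 927 CPM in T, with LPE at 785, 744 and 797 and CPE at 629.9, 787 and 723. Its fall in CPE (1.22-fold, edgeR adjusted p = 0.037) was the weakest of the SR calls and was lost on omitting any 1 of T replicates 1, 2 and 3, LPE replicates 1 and 3 and CPE replicates 1 and 3 (in that order, adjusted p = 0.058, 0.083, 0.18, 0.05, 0.055, 0.13 and 0.058).

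Srsf1, the founding SR protein, was not called by edgeR in any comparison, and DESeq2 called it lower in CPE against T (log2 −0.23, adjusted p = 0.039). Its levels were 1151, 1119 and 1161 CPM in T, with LPE at 1217, 971 and 1042 and CPE at 937, 939 and 1031, with edgeR adjusted p-values of 0.55, 0.07 and 0.32 for LPE against T, CPE against T and CPE against LPE. The CPE libraries were all below T, and LPE spanned both. Srsf4 averaged 56.5 ± 4.78 (SD, n = 3) CPM in T, with LPE at 81.1 ± 8.82 and CPE at 75.1 ± 5.35, and was not called although T lay below both (edgeR adjusted p = 0.061 and 0.13). In LPE it passed in the fit of 2 media (adjusted p = 0.048) and without LPE replicate 1 (adjusted p = 0.044). Srsf10, known as a repressor when it loses its phosphates, was at 139 ± 8.09, 153 ± 39.0 and 128 ± 21.3 CPM in T, LPE and CPE. Srsf11 was at 40.6 ± 9.81, 45.8 ± 23.2 and 32.2 ± 2.74 CPM in the same order, and its LPE libraries alone ran from 20.2 to 65.5. Neither was called. The low members Srsf9 (6.54 ± 0.835, 4.65 ± 0.284 and 7.84 ± 2.98 CPM) and Srsf12 (10.4 ± 1.16, 6.29 ± 5.57 and 4.73 ± 1.5 CPM) had SE of up to 1.03 on the log2 scale. Srsf12 had 26, 34 and 0 counts in LPE, a variance 15.4 times what counting alone gives. With such SE, differences of the sizes seen above were not detectable for them in these libraries.

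Of the hnRNP genes, 10 of 15 rose, 2 fell and 3 were not called in LPE against T (median log2 fold change 0.74), 80% called beside 29.7% of all genes. In CPE against T 8 rose, none fell and 7 were not called (0.51), or 53.3% beside 32.1%. Of the latter, 1 was lower at an unadjusted p under 0.05 in edgeR and none in DESeq2. Hnrnpa1, which coats nascent RNA and often blocks exons, gave 605, 755 and 693 CPM in T, with LPE at 1897, 1824 and 1814 and CPE at 1897, 1715 and 1871. It rose 2.70-fold in LPE (log2 1.43, SE 0.09, edgeR adjusted p = 5e-08) and 2.67-fold in CPE (adjusted p = 3.3e-08). Its LPE and CPE levels overlapped, far above T. The related Hnrnpa3 gave 709.9, 729 and 728 CPM in T, with LPE at 1424, 1439 and 1427 and CPE at 1226, 1299.8 and 1316, and rose 1.98-fold (edgeR adjusted p = 3.8e-07) and 1.77-fold (adjusted p = 1.9e-06). Hnrnpa2b1, which also carries RNA to distant parts of the cell, gave 588, 602 and 649.6 CPM in T, with LPE at 1074, 1061 and 1009.9 and CPE at 1006, 970.3 and 969. It rose 1.71-fold and 1.60-fold (edgeR adjusted p = 9.3e-06 and 2.5e-05). All 3 genes of the A/B group rose in both media, with no T library reaching any other.

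Hnrnpk, a poly(C)-binding protein of transcription and translation as well as splicing, gave 339, 287 and 339 CPM in T, with LPE at 606, 492 and 661 and CPE at 569, 589 and 561. It rose 1.82-fold and 1.78-fold (edgeR adjusted p = 6.9e-05 and 8.2e-05). Hnrnpf, which binds G-runs, rose from 555 ± 19.4 (SD, n = 3) to 862 ± 46.8 and 956 ± 20.1 CPM (1.55-fold and 1.72-fold, edgeR adjusted p = 7e-05 and 7.7e-06). Hnrnpl, a CA-repeat binder, rose from 108 ± 9.79 to 179.7 ± 30.2 and 159 ± 20.3 CPM (1.67-fold and 1.47-fold, edgeR adjusted p = 0.0036 and 0.019). Hnrnpd, also called Auf1 and known for the decay of AU-rich mRNA, rose from 94.0 ± 12 to 167 ± 21.2 and 134 ± 16.9 CPM (1.78-fold and 1.43-fold, edgeR adjusted p = 0.0016 and 0.03). Hnrnpul1, a protein related to Hnrnpu, rose from 309 ± 20.4 to 399 ± 41.1 and 499 ± 39.9 CPM (1.29-fold and 1.62-fold, edgeR adjusted p = 0.025 and 0.00029). Several of these calls were lost when 1 library was left out. Hnrnpl in CPE was lost on omitting any 1 of T replicates 1 and 2 and CPE replicates 1 and 3 (in that order, adjusted p = 0.06, 0.087, 0.064 and 0.06), and Hnrnpd in CPE on omitting any 1 of T replicates 1, 2 and 3 and CPE replicate 1 (in that order, adjusted p = 0.077, 0.14, 0.051 and 0.11). Hnrnpul1 in LPE was lost on omitting any 1 of T replicates 1 and 3 and LPE replicate 1 (in that order, adjusted p = 0.13, 0.067 and 0.09).

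The hnRNP genes that edgeR called between CPE and LPE were Hnrnph1, Hnrnph2 and Hnrnpu. Hnrnpul1 missed the threshold there (log2 0.33, edgeR adjusted p = 0.061) and was called higher in CPE by DESeq2 (adjusted p = 0.037). It also passed in edgeR with no scaling factors (adjusted p = 0.047) and without LPE replicate 1 (adjusted p = 0.042). Hnrnph1, a G-run binder, gave 559, 672 and 649.6 CPM in T, with LPE at 1169, 1065 and 1133 and CPE at 635, 777 and 815. Every LPE library was above all others, and CPE overlapped T. It rose 1.79-fold in LPE (edgeR adjusted p = 3.9e-05), was not called in CPE against T (log2 0.24, adjusted p = 0.11, but 0.028 without CPE replicate 1) and fell 1.51-fold from LPE to CPE (log2 −0.60, SE 0.11, adjusted p = 0.0013). Its close relative Hnrnph2 went the other way: it gave 159, 189 and 164 CPM in T, with LPE at 149, 96.7 and 120.2 and CPE at 182, 193 and 173. It fell 1.40-fold in LPE (edgeR adjusted p = 0.038) and was 1.5-fold higher in CPE than in LPE (adjusted p = 0.02). The pair are paralogs, so reads shared between them are uncertain. The Hnrnph2 fall was lost on omitting any 1 of T replicates 1, 2 and 3 and LPE replicates 2 and 3 (in that order, adjusted p = 0.064, 0.17, 0.091, 0.13 and 0.088), and its difference between CPE and LPE on omitting any 1 of LPE replicates 2 and 3 and CPE replicate 2 (in that order, adjusted p = 0.059, 0.056 and 0.071). The fall was also lost with a replicate block (adjusted p = 0.052) and in the fit of 2 media (adjusted p = 0.079), where the difference between CPE and LPE was lost as well (adjusted p = 0.06). Hnrnpu, a scaffold protein that binds RNA and chromatin, gave 547, 524 and 551 CPM in T, with LPE at 646, 711 and 516 and CPE at 441, 439 and 493. It fell 1.36-fold from LPE to CPE (edgeR adjusted p = 0.014), a call lost on omitting CPE replicate 2 (adjusted p = 0.057), and was not called against T (adjusted p = 0.21 and 0.13), though without LPE replicate 3 the first was 0.043.

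Hnrnpr was the other hnRNP gene that fell in LPE. It gave 102, 143 and 108 CPM in T, with LPE at 73.8, 53.8 and 84.9 and CPE at 82.0, 88.6 and 81.5, a 1.66-fold fall in LPE (edgeR adjusted p = 0.015) that was lost on omitting T replicate 2 (adjusted p = 0.11). In CPE it was not called (log2 −0.49, adjusted p = 0.087), but passed without LPE replicate 2 (adjusted p = 0.045) and in the fit of 2 media (adjusted p = 0.041). Hnrnpul2 was at 45.8, 26.6 and 40.0 CPM in T and 85.3, 113 and 43.9 in LPE, with CPE at 54.6, 52.7 and 43.2. It was called higher in LPE (2.15-fold, edgeR adjusted p = 0.016) although the groups overlapped, and the call was lost on omitting any 1 of T replicate 2 and LPE replicate 2 (in that order, adjusted p = 0.087 and 0.066). Hnrnpdl (278 ± 4.54, 355 ± 62.1 and 328 ± 42.2 CPM in T, LPE and CPE) and Hnrnpm (355 ± 57.5, 404 ± 61.6 and 392 ± 49.8 CPM) were not called by edgeR in any comparison. Hnrnpdl was called higher in LPE against T by DESeq2 (adjusted p = 0.048), at equal depth (adjusted p = 0.044) and without LPE replicate 2 (adjusted p = 0.0076).

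**Figure D2:**
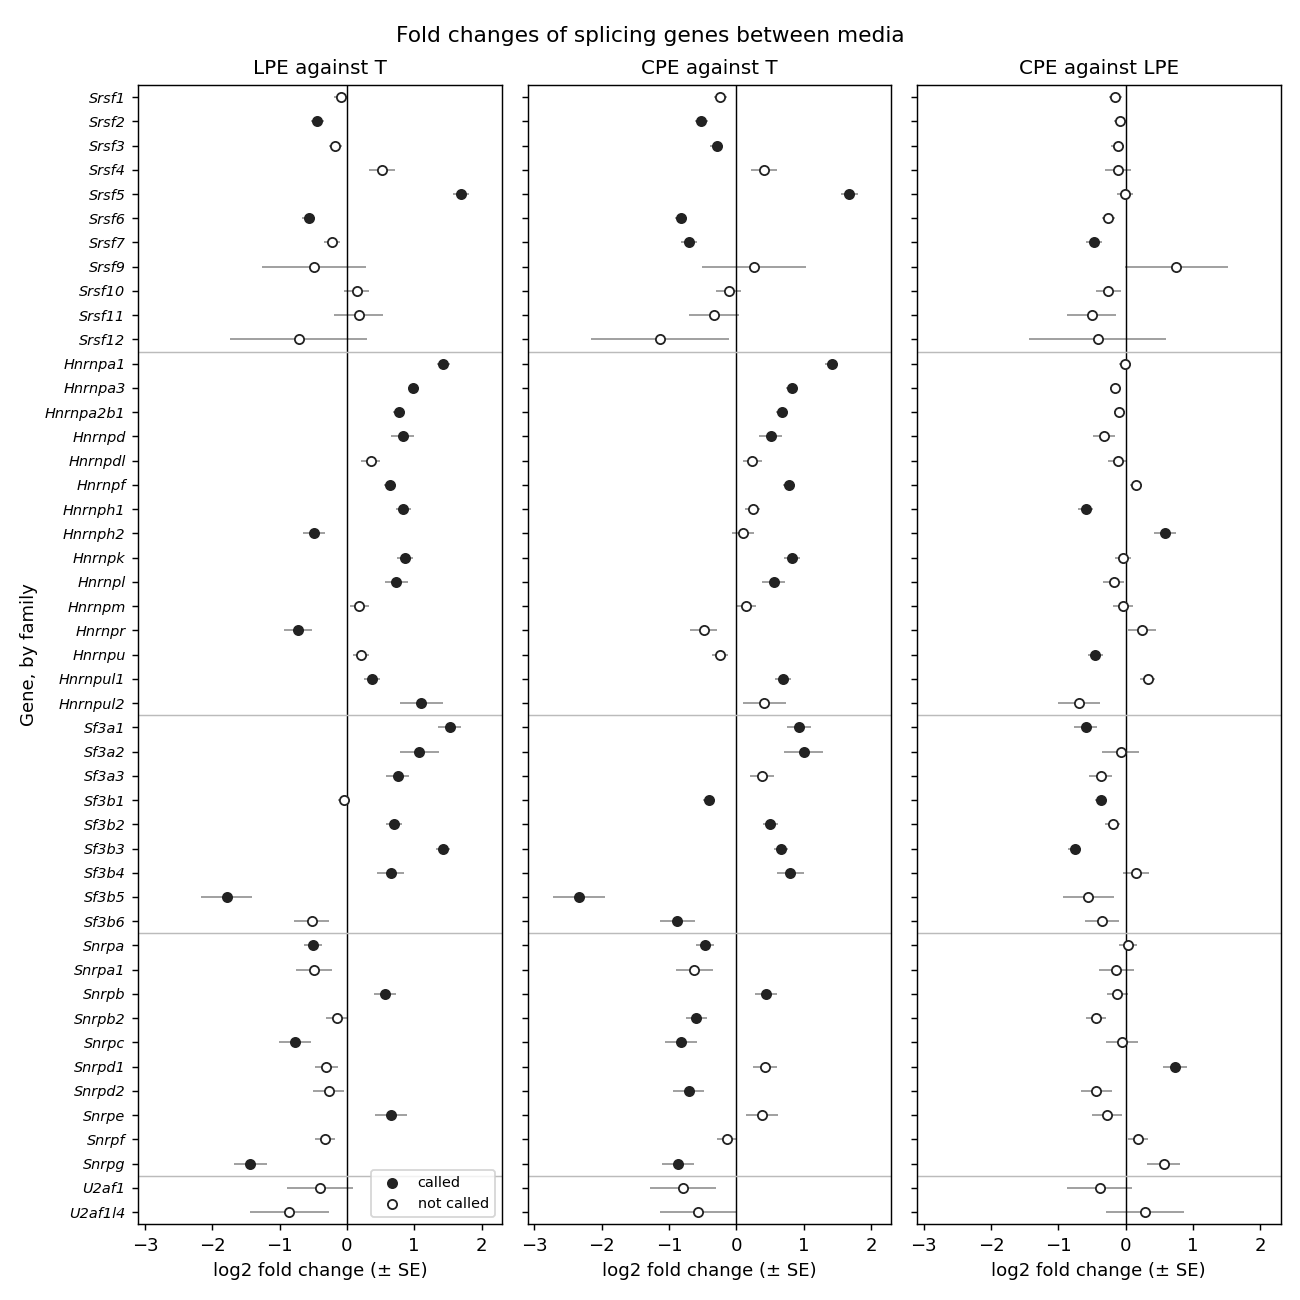
Log2 fold change of each gene (rows, by family) with its standard error, in LPE against T, CPE against T and CPE against LPE. Filled points were called: 19 higher and 8 lower, 15 higher and 12 lower, and 2 higher and 6 lower. The median hnRNP and SF3 rows lie right of 0 against T (log2 0.74 and 0.70 in LPE), and the median Snrp row left of it (−0.31).

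SF3a and SF3b, the U2 subcomplexes that clamp the branch point, were split by subunit. In LPE against T, 6 of 9 genes rose, 1 fell and 2 were not called (median log2 fold change 0.70), 77.8% called beside 29.7% of all genes. In CPE against T 5 rose, 3 fell and 1 was not called (0.51), or 88.9% beside 32.1%. Between CPE and LPE 3 fell and none rose (median −0.36), or 33.3% beside 17.8%. None was higher at an unadjusted p under 0.05 in edgeR or by DESeq2 either. All 3 SF3a genes rose in LPE. Sf3a1 gave 116, 78.2 and 88.3 CPM in T, with LPE at 234, 322 and 258 and CPE at 157, 197 and 183. Its 3 groups did not overlap, with LPE highest. It rose 2.88-fold in LPE (log2 1.52, SE 0.18, edgeR adjusted p = 1.2e-05) and 1.90-fold in CPE (adjusted p = 0.00082). The 1.51-fold fall from LPE to CPE (edgeR adjusted p = 0.021) was lost on omitting any 1 of LPE replicate 2 and CPE replicates 1 and 3 (in that order, adjusted p = 0.071, 0.083 and 0.054). Sf3a2 gave 28.9, 19.1 and 21.4 CPM in T, with LPE at 64.2, 41.3 and 41.0 and CPE at 49.8, 42.9 and 46.4, rising 2.11-fold and 2.00-fold (edgeR adjusted p = 0.011 and 0.016). Its call in LPE was lost on omitting any 1 of T replicates 2 and 3 and LPE replicate 1 (in that order, adjusted p = 0.063, 0.059 and 0.051) and that in CPE on omitting any 1 of T replicates 2 and 3 (in that order, adjusted p = 0.081 and 0.076). Sf3a3 rose in LPE, from 90.7 ± 4.81 (SD, n = 3) to 153 ± 24.0 CPM (edgeR adjusted p = 0.0036), and was at 118 ± 14.3 in CPE, where it was not called (adjusted p = 0.11, and 0.048 in the fit of 2 media).

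In SF3b the large subunits did not move as one. Sf3b3, a scaffold subunit, gave 465, 409 and 504 CPM in T, with LPE at 1204, 1274 and 1227 and CPE at 658, 757 and 772, 3 levels well apart. It rose 2.69-fold in LPE (log2 1.43, SE 0.10, edgeR adjusted p = 1.4e-07) and 1.59-fold in CPE (adjusted p = 0.00014), and fell 1.69-fold from LPE to CPE (log2 −0.76, SE 0.10, adjusted p = 8.6e-05). Sf3b1, the subunit that grips the branch site and is mutated in some blood cancers, gave 1255, 1421 and 1164 CPM in T, with LPE at 1226, 1292 and 1202 and CPE at 936, 971 and 984. LPE matched T in level, and all CPE libraries lay below both. It fell 1.33-fold in CPE against T (edgeR adjusted p = 0.0027) and 1.29-fold against LPE (adjusted p = 0.011). Sf3b2 rose from 228 ± 7.83 to 370.3 ± 33.8 and 324 ± 13.0 CPM (edgeR adjusted p = 0.00027 and 0.003). Its partner Sf3b4 gave 63.8, 49.8 and 59.5 CPM in T, with LPE at 84.1, 103 and 84.6 and CPE at 120.3, 92.2 and 90.2, rising 1.57-fold and 1.75-fold (edgeR adjusted p = 0.024 and 0.0063). The Sf3b4 call in LPE was lost on omitting any 1 of T replicates 1, 2 and 3 and LPE replicate 2 (in that order, adjusted p = 0.05, 0.11, 0.071 and 0.056).

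Of the small subunits taken by symbol, Sf3b5 and, in CPE, Sf3b6 fell. Phf5a, among the snRNP proteins outside the rule, was not called against T (log2 −0.06 and 0.35, edgeR adjusted p = 0.8 and 0.089). Sf3b5, among the smallest SF3b proteins, gave 84.6, 81.1 and 81.8 CPM in T, with LPE at 23.3, 13.1 and 35.3 and CPE at 8.55, 22.3 and 17.7. T was tight and every other library was far below it. It fell 3.45-fold in LPE (log2 −1.79, SE 0.38, edgeR adjusted p = 0.002) and 5.06-fold in CPE (log2 −2.34, SE 0.38, adjusted p = 0.00025), and both calls held in all 18 alternative settings. Sf3b6, which contacts the branch point adenosine, gave 109, 81.7 and 122 CPM in T, with LPE at 91.7, 53.8 and 71.8 and CPE at 49.8, 75.2 and 44.5. It fell 1.84-fold in CPE (edgeR adjusted p = 0.016), a call lost on omitting any 1 of T replicates 1 and 3 and CPE replicates 1 and 3 (in that order, adjusted p = 0.058, 0.094, 0.06 and 0.068), and was not called in LPE (log2 −0.52, adjusted p = 0.14).

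**Figure D3:**
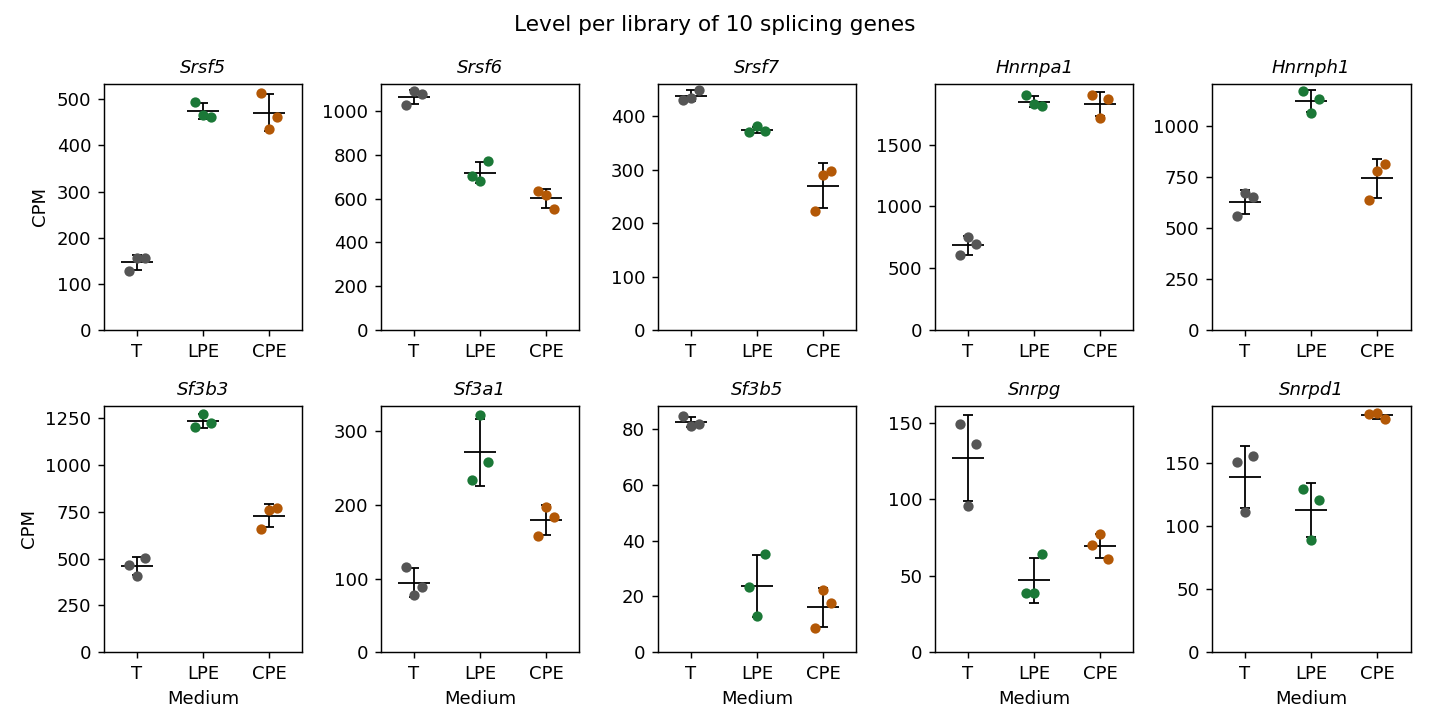
CPM in each library (points), with mean ± SD of 3 libraries, for Srsf5, Srsf6, Srsf7, Hnrnpa1, Hnrnph1, Sf3b3, Sf3a1, Sf3b5, Snrpg and Snrpd1 in T, LPE and CPE. Hnrnph1 and Sf3b3 peak in LPE, Srsf7 is lowest in CPE, and Sf3b5 drops from 81.1 to 84.6 CPM in T to at most 35.3 in any other library.

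Of the Snrp genes, 2 of 10 rose, 3 fell and 5 were not called in LPE against T (median log2 fold change −0.31), 50% called beside 29.7% of all genes. In CPE against T 1 rose, 5 fell and 4 were not called (−0.53), or 60% beside 32.1%, and all but Snrpd1 of those called in any comparison lost a call in some setting. The Sm ring holds 1 copy of each of its proteins, and its members parted. Snrpg, the SmG protein, gave 149.5, 95.6 and 136 CPM in T, with LPE at 38.7, 38.5 and 64.1 and CPE at 70.5, 77.2 and 61.2. All T libraries were above all others. It fell 2.70-fold in LPE (log2 −1.43, SE 0.25, edgeR adjusted p = 4e-04) and 1.82-fold in CPE (adjusted p = 0.011). The fall in CPE was lost on omitting any 1 of T replicates 1 and 3 (in that order, adjusted p = 0.074 and 0.056). CPE against LPE was not called for it (adjusted p = 0.12) but passed without LPE replicate 3 (adjusted p = 0.026). Snrpb, which codes for SmB, gave 239, 261 and 228 CPM in T, with LPE at 472, 276 and 327 and CPE at 324, 325 and 336. It rose 1.48-fold and 1.36-fold (edgeR adjusted p = 0.015 and 0.049). The first call was lost on omitting any 1 of T replicates 1 and 3 and LPE replicate 1 (in that order, adjusted p = 0.056, 0.068 and 0.084), and the second in 10 of 18 alternatives, among them on omitting any 1 of T replicates 1, 2 and 3, LPE replicate 3 and CPE replicates 1, 2 and 3 (in that order, adjusted p = 0.13, 0.079, 0.16, 0.062, 0.095, 0.1 and 0.11).

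Snrpd1, the SmD1 protein, was the one Snrp gene that edgeR called between CPE and LPE. It gave 151, 111 and 156 CPM in T, with LPE at 129.8, 88.9 and 121 and CPE at 189, 190.1 and 185. CPE was the highest and tightest group, and LPE overlapped T. It was 1.66-fold higher in CPE than in LPE (log2 0.73, SE 0.17, edgeR adjusted p = 0.0078) and was not called against T (adjusted p = 0.22 and 0.073). Its CPE difference from T passed in the fit of 2 media (adjusted p = 0.022) and without LPE replicate 2 (adjusted p = 0.027). Snrpd2 gave 154, 104 and 146 CPM in T, with LPE at 121, 108 and 106 and CPE at 86.4, 54.5 and 108. It fell 1.63-fold in CPE (edgeR adjusted p = 0.028) although 1 CPE library overlapped T, and the call was lost on omitting any 1 of T replicates 1 and 3 and CPE replicates 1 and 2 (in that order, adjusted p = 0.12, 0.1, 0.055 and 0.11). Snrpe gave 50.7, 46.9 and 52.5 CPM in T, with LPE at 70.6, 72.7 and 94.2 and CPE at 47.8, 77.0 and 71.2. Its rise in LPE (1.58-fold, edgeR adjusted p = 0.046) was lost on omitting any 1 of T replicates 1, 2 and 3, LPE replicate 3 and CPE replicates 2 and 3 (in that order, adjusted p = 0.12, 0.15, 0.11, 0.15, 0.053 and 0.057). It was also lost with a replicate block, with no filter on low counts (adjusted p = 0.055 in both) and on counts of either strand (adjusted p = 0.16), which for this gene are 0.68 of the gene-strand counts. Snrpf, at 162 ± 2.80 (SD, n = 3), 129.9 ± 9.64 and 148 ± 20.0 CPM, was not called.

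Of the 4 genes named Snrp whose proteins are special to U1 or U2, 2 fell in LPE and 3 in CPE. None of the 4 rose against T, at an unadjusted p under 0.05 in edgeR or by DESeq2 either. The SF3a and SF3b genes, also of U2, are counted apart above. Snrpa, the A protein of U1, gave 178, 192 and 207 CPM in T, with LPE at 143, 135 and 130.1 and CPE at 137, 133 and 149, all T libraries above the rest. It fell 1.42-fold and 1.38-fold (edgeR adjusted p = 0.012 and 0.017). The calls were lost on omitting T replicate 3 (adjusted p = 0.088) in LPE, and on omitting any 1 of T replicates 2 and 3 and CPE replicate 2 (in that order, adjusted p = 0.059, 0.11 and 0.055) in CPE. Snrpc, the C protein of U1, which steadies that particle on the 5′ splice site, gave 161, 168 and 153 CPM in T, with LPE at 94.0, 58.7 and 130.1 and CPE at 78.4, 106 and 87.9. It fell 1.7-fold and 1.77-fold (edgeR adjusted p = 0.021 and 0.013). The LPE call was lost on omitting any 1 of T replicates 1, 2 and 3 and LPE replicates 1 and 2 (in that order, adjusted p = 0.058, 0.078, 0.051, 0.055 and 0.059) and the CPE call on omitting any 1 of T replicate 2 and CPE replicate 1 (in that order, adjusted p = 0.055 and 0.056). Snrpb2, a U2 protein that binds its RNA, fell in CPE from 163 ± 13.4 (SD, n = 3) to 108 ± 12.8 CPM (1.51-fold, edgeR adjusted p = 0.0086, lost on omitting T replicate 3 (adjusted p = 0.065)) and was at 147 ± 15.2 in LPE. CPE against LPE missed the threshold for it in edgeR (adjusted p = 0.061) and passed in DESeq2 (adjusted p = 0.048), at equal depth (adjusted p = 0.037) and without LPE replicate 2 or CPE replicate 1 (adjusted p = 0.032 and 0.046). Snrpa1, its partner in U2, was at 125 ± 12.1, 89.5 ± 27.1 and 81.4 ± 29.5 CPM in T, LPE and CPE and was not called, except in CPE against T without CPE replicate 3 (adjusted p = 0.044).

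U2af1, the subunit that reads the AG at the 3′ splice site, was not called, and neither U2af gene reached an unadjusted p under 0.05 in edgeR or a DESeq2 call. Its levels were 37.7, 37.6 and 43.2 CPM in T, with LPE at 23.0, 46.3 and 20.5 and CPE at 13.6, 9.99 and 45.7. The T libraries agreed closely, while 1 LPE library and 1 CPE library were above all of T and the others below it. The edgeR adjusted p was 0.59 in LPE and 0.25 in CPE, and without CPE replicate 3 the CPE difference was −1.75 on the log2 scale with an adjusted p = 0.0085. U2af1l4, a U2af1 paralog, gave 24.6, 24.3 and 25.6 CPM in T, with LPE at 10.5, 3.11 and 27.6 and CPE at 19.8, 17.9 and 12.6. Its LPE spread likewise ran from far below T to above it. It was not called (edgeR adjusted p = 0.3 and 0.5), and without LPE replicate 3 the LPE difference was −1.85 with an adjusted p = 0.028.

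Summed by family, hnRNP genes were higher and SR genes lower in every LPE and CPE library than in any T library. The 15 hnRNP genes summed to 5288, 5674 and 5636 CPM in T, with LPE at 9645, 9061 and 9185 and CPE at 8648, 8516 and 8779. The 11 SR genes summed to 5277, 5589 and 5460.2 CPM in T, with LPE at 5036, 4613 and 4848 and CPE at 4101, 4423 and 4479. The SR sum was lowest in CPE, and the hnRNP sum highest in LPE. The 9 SF3 genes summed to 2448, 2444 and 2366 CPM in T, with LPE at 3419, 3681 and 3417 and CPE at 2416, 2586 and 2601, so that LPE stood apart and CPE overlapped T. The 10 Snrp genes summed to 1497 ± 77.8 CPM (SD, n = 3) in T, with LPE at 1306 ± 173 and CPE at 1303 ± 62.0. The 2 U2af genes summed to 64.3 ± 3.89, 43.7 ± 8.79 and 39.9 ± 16.2 CPM in that order. All 47 genes together made up 1.46% to 1.91% of gene counts in a library. These sums were not tested.

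**Figure D4:**
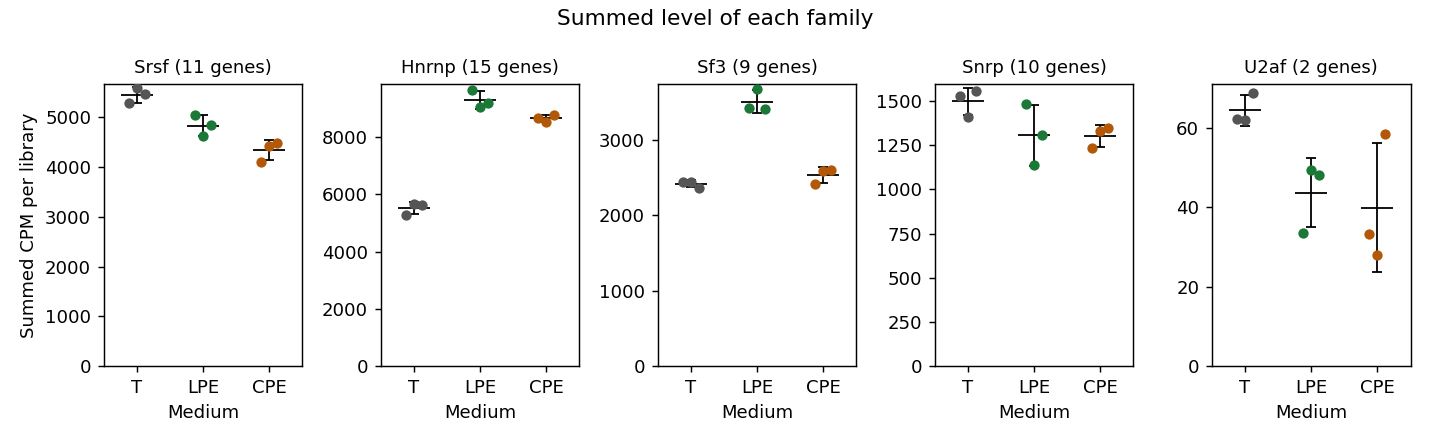
Summed CPM of each family in each library (points), with mean ± SD of 3 libraries, in T, LPE and CPE. The hnRNP sum goes from 5288 to 5674 CPM in T to 8516 CPM or more in every LPE and CPE library, the SF3 sum is highest in LPE, and the SR sum is lowest in CPE.

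Ratios of counts within a library do not depend on scaling, and 4 pairs chosen after the values were seen are given as a description of how the media differ. Snrpb over Snrpg, of the same ring, was 1.60, 2.73 and 1.67 in T, 12.2, 7.17 and 5.10 in LPE and 4.60, 4.21 and 5.49 in CPE. Sf3b3 over Sf3b5, of the same subcomplex, was 5.5, 5.05 and 6.15 in T, 51.6, 97.6 and 34.8 in LPE and 77.0, 34.0 and 43.6 in CPE. No library of LPE or CPE came down to T in either. Srsf5 over Srsf6 was 0.124, 0.144 and 0.145 in T, 0.701, 0.686 and 0.599 in LPE and 0.809, 0.710 and 0.832 in CPE. Hnrnpa1 over Hnrnpr was 5.93, 5.28 and 6.40 in T, 25.7, 33.9 and 21.4 in LPE and 23.1, 19.4 and 23.0 in CPE. In all 4 ratios T lay apart from both other media, and LPE overlapped CPE in all but Srsf5 over Srsf6, where CPE was higher.

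The spread between replicates differed by medium and family. The median coefficient of variation over the 47 genes was 8.56% in T, with LPE at 14.7% and CPE at 11.3%. The median variance was 2.16, 11.4 and 8.23 times what counting alone gives, in that order. At equal relative spread this ratio grows with the count, and the T libraries were the shallowest. Not every family followed: the SR median was 8.46% in T, with LPE at 6.58% and CPE at 9.75%, and the hnRNP median was 9.32% in T, with LPE at 14.7% and CPE at 6.71%. The largest value in each medium was 91.2% in LPE (U2af1l4), 85.2% in CPE (U2af1) and 26.2% in T (Hnrnpul2). Srsf12 reached 88.4% in LPE. Hnrnpa3 in LPE was the tightest at 0.572%. The test shares 1 estimate of the spread per gene across media. Genes not called had log2 fold changes from −0.85 to 0.52 in LPE against T (20 genes), −1.13 to 0.43 in CPE against T (20 genes) and −0.69 to 0.75 in CPE against LPE (39 genes), and a missed threshold does not show that levels were equal.

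The splicing machinery beyond these families showed rises and falls side by side. Of 30 other snRNP proteins tested, 9 were higher and 6 lower in LPE against T, 8 and 6 in CPE against T, and 1 and 2 in CPE against LPE (medians 0.08, 0.04 and −0.06). That is 50%, 46.7% and 10% called, beside 29.7%, 32.1% and 17.8% of all genes. Each share of a list called in these 3 comparisons is set beside those, with no match for level. The genes named from each list are among its largest movers, limited to calls that held in all 18 alternatives. Prpf8, the core scaffold of the catalytic spliceosome, averaged 278 ± 86.8 (SD, n = 3) CPM in T, with LPE at 1097 ± 117 and CPE at 1035 ± 78.5, a rise of 3.94-fold and 3.72-fold (edgeR adjusted p = 9.2e-07 and 1.2e-06). Snrnp27, a tri-snRNP protein, fell 2.85-fold in LPE, from 84.5 ± 7.51 to 29.7 ± 0.975 CPM (edgeR adjusted p = 0.00037). Prpf4 and Snrnp40, of the U4/U6 and U5 particles, fell 1.72-fold and 1.69-fold in LPE (edgeR adjusted p = 0.00026 and 0.0021). In CPE they fell 2.09-fold and 2.09-fold (edgeR adjusted p = 1.4e-05 and 0.00012). Snrnp200, the helicase that unwinds U4 from U6, fell 1.52-fold from LPE to CPE (edgeR adjusted p = 0.00053). Of 10 Lsm genes, which include those of the ring that binds U6 and others of the cytoplasm and of U7, 3 fell in LPE (30%, median −0.39), and none was called by edgeR or DESeq2 in CPE against T or CPE against LPE, where 2 were lower and 1 was higher at an unadjusted p under 0.05.

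Among 24 genes of the Prp19 complex and the catalytic steps, 3 rose and 4 fell in LPE against T, none rose and 7 fell in CPE against T, and 1 rose and 2 fell in CPE against LPE (29.2%, 29.2% and 12.5% called, none above the share of all genes). DESeq2 called 2 of them higher in CPE against T, as did edgeR at an unadjusted p under 0.05. Prpf19, the ubiquitin ligase of the complex, averaged 560.1 ± 8.69 (SD, n = 3) CPM in T, with LPE at 286 ± 18.3 and CPE at 365 ± 19.3. It fell 1.96-fold in LPE and 1.54-fold in CPE (edgeR adjusted p = 5.4e-06 and 0.00028). Its partner Cdc5l went the other way in LPE, at 299 ± 16.8, 448 ± 43.6 and 235 ± 28.4 CPM (1.5-fold up, adjusted p = 0.0021), and fell 1.91-fold from LPE to CPE (edgeR adjusted p = 7.9e-05). Of 15 genes that assemble Sm rings, 2 rose and 2 fell in LPE against T, 3 fell in CPE against T and 1 fell in CPE against LPE (26.7%, 20% and 6.67% called, below all genes). Clns1a, which holds Sm proteins before assembly, fell from 263 ± 6.98 to 113 ± 7.72 and 132 ± 30.0 CPM (2.32-fold and 1.99-fold, edgeR adjusted p = 4.3e-05 and 0.00021). Prmt5, which methylates Sm tails together with Clns1a, rose 1.99-fold in LPE, from 277 ± 23.2 to 553 ± 37.1 CPM (edgeR adjusted p = 3.5e-05), and fell 1.58-fold from LPE to CPE (adjusted p = 0.0019). Of 23 SR protein kinases, importers and SR-like coactivators, 3 rose and 1 fell in LPE against T, 2 fell in CPE against T, and 2 rose and 1 fell in CPE against LPE (17.4%, 8.7% and 13% called, below all genes). Srpk1, the cytoplasmic SR protein kinase, was at 305 ± 19.9, 536 ± 45.9 and 345 ± 30.1 CPM, a rise of 1.76-fold in LPE (edgeR adjusted p = 7.1e-05) and a fall of 1.56-fold from LPE to CPE (adjusted p = 0.00094).

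Regulators that differ between cell types moved in both directions. Of 23 such genes, 6 rose and 3 fell in LPE against T, 8 rose and 3 fell in CPE against T, and 5 rose and 2 fell in CPE against LPE (39.1%, 47.8% and 30.4% called, above all genes). Rbm47, an RNA-binding protein of endoderm and epithelia, averaged 47.7 ± 5.78 (SD, n = 3) CPM in T, with LPE at 167 ± 21.1 and CPE at 165 ± 41.1, a rise of 3.50-fold and 3.47-fold (edgeR adjusted p = 1.2e-05 and 9.6e-06). Mbnl3, of the muscleblind family, was at 167 ± 26.8, 55.1 ± 12.8 and 148 ± 22.5 CPM and fell 3.04-fold in LPE against T (edgeR adjusted p = 2.9e-05). It was not called in CPE against T (adjusted p = 0.53) and was 2.68-fold higher in CPE than in LPE (adjusted p = 0.00015). Rbm38, an RNA-binding protein that steadies some mRNAs, was at 54.2 ± 9.64, 48.5 ± 4.84 and 8.09 ± 2.10 CPM and fell 6.61-fold in CPE against T and 5.92-fold against LPE (edgeR adjusted p = 8.1e-06 and 3.1e-05). Of 17 other nuclear RNA-binding proteins of hnRNP type, 5 rose and 2 fell in LPE against T, 4 rose and 2 fell in CPE against T, and 2 rose and 5 fell in CPE against LPE (41.2%, 35.3% and 41.2% called). Nono, a paraspeckle protein, fell 2.04-fold in LPE and was 1.82-fold higher in CPE than in LPE (edgeR adjusted p = 2.4e-05 and 0.00021). Of 11 genes of the exon junction complex and nonsense-mediated decay, the route that destroys mRNAs with early stops, 5 rose and 2 fell in LPE against T, 3 rose and 2 fell in CPE against T, and 1 fell in CPE against LPE (63.6%, 45.5% and 9.09% called). Of 7 minor spliceosome genes, 1 rose in each medium against T (14.3% called in both) and none was called in CPE against LPE, by edgeR at an unadjusted p under 0.05 or by DESeq2 either.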

How the data were processed

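RNA of 9 libraries was sequenced, 3 for each medium (T, LPE, CPE). Libraries were made from ribosome-depleted RNA with a directional kit and random primers and read in pairs of 101 cycles, per the labels' protocols. The authors used STAR 2.5.1 with Trimmomatic 0.33, CASAVA 1.8.2 and DESeq2 on build rn6, per the submitters' processing notes. The gene annotation was not given in the sources used here. The deposited tables hold raw read counts per gene from the authors, for either strand and for each strand, and the gene-strand column was used.

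The test was that of edgeR 4.0.16 under R 4.3.3 (quasi-likelihood test, all 9 libraries, a mean per medium, TMM factors, filterByExpr with 10 counts in enough libraries and 15 in total). This kept 9130 genes, among them all 47 members, and p was adjusted by Benjamini-Hochberg over all of them. Genes under an adjusted p of 0.05 are called. CPM are counts per 1e6 gene counts with TMM factors, log2 fold changes come from the fit, and SE is the log2 fold change over the square root of F. Checks ran on data simulated with the fitted spread, with changes set in genes drawn from all levels. In LPE against T, CPE against T and CPE against LPE, the test found 32%, 36% and 35% of 2-fold changes. Of 4-fold changes it found 74%, 75% and 68%. Changes were set in few genes, and 111, 118 and 108 were called there, far fewer than in the data. The adjusted threshold was thus stricter there, and the 47 genes are read more deeply than most. The rates do not apply directly to these 47 genes. Members, gene lists and tests were chosen with earlier results of these data known. Named genes follow a rule: up to 3 called rises and falls per family and comparison, with some fixed members, get values per library, and up to 2 rises and falls per list are named. DESeq2 1.42.0, other scalings, filters, strands, depths and omitted libraries were tried as alternatives. Promoters were matched by symbol to RefSeq on GRCr8 (46 of 47). Protein sequences and splice junctions were not used here.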

Additional observations from a re-analysis of the deposited data

How the results depend on the processing

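Under 18 alternatives (DESeq2, 2 other scalings, 2 other filters, fits of 2 media, a replicate block, either-strand counts, thinning to 1698764 counts, and each library left out) no called splicing gene changed direction. Of 27, 27 and 8 calls in LPE against T, CPE against T and CPE against LPE, 17, 16 and 5 held in all 18. The number called ranged from 19 to 27, 18 to 29 and 6 to 9 with a library left out, and stood at 28, 28 and 11 with DESeq2. Thinned to equal depth it was 28, 27 and 9. The count called lower in LPE was 5 without T replicate 2 or 3, that in CPE 6 without T replicate 3, and that higher in CPE over LPE 1 without LPE replicate 2, without CPE replicate 2 or in the fit of 2 media. Over all genes, 912, 901 and 892 in place of 1343 were lower in LPE without T replicates 1, 2 and 3 in turn. Leaving out a library also changes how many genes are tested. Same-numbered libraries did not deviate together (r of −0.03 to 0.01 over 9 pairs, beside −0.05 to 0.04 over 18 other pairs), so the numbers are not taken as pairs. With the replicate number as a block, 25, 26 and 8 splicing genes were called. Srsf9 and Srsf12 have few counts. Srsf12 and the U2af pair vary between LPE libraries well beyond counting, as does U2af1 between CPE libraries.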

Other observations

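Ptbp1, Esrp1 and Esrp2, splicing regulators outside the families, were picked after their values were seen. Ptbp1, the polypyrimidine tract-binding protein that represses many exons, was at 783 ± 31.8 CPM (SD, n = 3) in T, 1436 ± 108 in LPE and 1417 ± 46.1 in CPE, a rise of 1.83-fold and 1.81-fold (edgeR adjusted p = 2.8e-06 and 2.8e-06). Its paralog Ptbp3 went from 1177 ± 44.2 CPM in T and 1001 ± 194 in LPE to 663 ± 18.2 in CPE, a fall of 1.78-fold against T and 1.51-fold against LPE (edgeR adjusted p = 8e-05 and 0.0026). The epithelial splicing regulators Esrp1 and Esrp2 rose in LPE, by 2.05-fold and 1.93-fold (edgeR adjusted p = 0.0012 and 0.014). Esrp2 also rose in CPE, by 2.13-fold (edgeR adjusted p = 0.0051), and its call in LPE was lost on omitting T replicate 2 (adjusted p = 0.077).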
